A study of Mus musculus with 8 samples.

Results

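ASZ001 is a mouse basal cell carcinoma line grown in culture, and here it carried a doxycycline-inducible vector that either held c-FOS or was empty. The comparison described is that of c-Fos cells treated with afatinib, an inhibitor of the EGFR family of receptor kinases, against cells with the empty vector. It uses 4 of the 8 RNA-seq libraries of the study, 2 per group, and all genes of the deposited table apart from 26 whose symbols had turned into dates. Afatinib-treated libraries came from c-Fos cells given doxycycline for 24 h and then afatinib at 5 µM for 6 h. The 2 libraries of c-Fos cells given doxycycline for 24 h and then DMSO for 6 h are set beside them, because they show the c-Fos state without the drug. Empty-vector libraries came from cells given doxycycline for 24 h, and their label names neither DMSO nor a further 6 h. Against the empty vector, c-Fos, afatinib and any vehicle or added hours therefore differed together and cannot be told apart. Separate cultures are not stated for the 2 libraries within a group, so the p-values reflect only how those libraries differ, and that may be technical. The labels do not say whether the inducible sequence is of mouse or another species. The last group of the study, c-Fos cells given UO126 at 10 µM for 6 h, enters the estimate of spread between libraries, and its levels are given for some genes without a test. UO126 is an inhibitor of MEK. Where libraries are said to stand apart, alone, highest or lowest, the afatinib, DMSO and empty-vector groups are meant. The comparison asks which part of the c-Fos state remained under afatinib and which genes left the levels of both the DMSO and the empty-vector group.

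c-Fos pairs with JUN proteins to form AP-1, a transcription factor that binds short palindromic DNA sites and is known in skin for driving squamous genes, matrix proteases and wound responses. EGFR family receptors bind growth factors such as heparin-binding EGF-like growth factor and signal through RAS, MEK and ERK, which raises cyclin D1, MYC and feedback genes of the ETV, Sprouty and DUSP families. Basal cell carcinomas depend on Hedgehog signalling through SMO and GLI factors, and AP-1 activity has been tied to their shift towards a squamous state. ATF4 is a stress-induced factor that raises genes for amino acid uptake, amino acid synthesis and transfer RNA charging.

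Promoters are shown for 6 genes that were higher than the empty vector with afatinib, to show a pair of motifs, the AP-1 site TGANTCA and the C/EBP-ATF response element TGATGNAA, which ATF4 is known to bind and which reads TTNCATCA on the other strand. The sequences are the 250 bases before the start site, from the RefSeq promoter table of build GRCm38.p6, while the submitters' processing notes name mm9 for the counts. For the AP-1 group Mmp13 was taken from chr9:7272264-7272513 (plus strand), Plaur from chr7:24462233-24462482 (plus strand) and Sprr1a from chr3:92485882-92486131 (minus strand). For the ATF4 group Chac1 was taken from chr2:119350992-119351241 (plus strand), Fgf21 from chr7:45615491-45615740 (minus strand) and Slc7a11 from chr3:50443614-50443863 (minus strand). Capitals mark each match to the motif on either strand.
Mmp13: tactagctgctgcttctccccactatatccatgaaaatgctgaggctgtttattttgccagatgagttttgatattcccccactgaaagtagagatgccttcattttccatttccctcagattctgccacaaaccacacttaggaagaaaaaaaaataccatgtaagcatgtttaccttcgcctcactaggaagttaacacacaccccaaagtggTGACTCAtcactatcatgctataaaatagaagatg
Plaur: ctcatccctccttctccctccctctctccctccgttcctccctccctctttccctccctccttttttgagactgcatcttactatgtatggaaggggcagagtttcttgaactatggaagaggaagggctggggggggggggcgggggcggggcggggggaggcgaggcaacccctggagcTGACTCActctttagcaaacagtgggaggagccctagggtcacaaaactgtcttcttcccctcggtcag
Sprr1a: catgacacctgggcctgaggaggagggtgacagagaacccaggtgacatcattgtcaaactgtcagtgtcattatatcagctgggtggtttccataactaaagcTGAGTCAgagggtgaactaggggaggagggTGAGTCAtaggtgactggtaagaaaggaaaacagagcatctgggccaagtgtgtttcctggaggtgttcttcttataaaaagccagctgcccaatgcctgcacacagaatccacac
Chac1: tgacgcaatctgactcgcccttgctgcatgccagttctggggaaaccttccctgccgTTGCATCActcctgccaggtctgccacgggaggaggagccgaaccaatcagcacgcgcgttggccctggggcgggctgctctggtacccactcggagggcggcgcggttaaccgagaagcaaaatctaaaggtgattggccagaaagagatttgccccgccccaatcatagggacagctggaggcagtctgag
Fgf21: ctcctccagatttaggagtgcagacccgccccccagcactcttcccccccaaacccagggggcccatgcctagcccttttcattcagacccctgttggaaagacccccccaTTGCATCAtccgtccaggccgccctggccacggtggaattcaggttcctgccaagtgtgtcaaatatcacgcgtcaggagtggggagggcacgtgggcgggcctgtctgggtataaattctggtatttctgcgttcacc
Slc7a11: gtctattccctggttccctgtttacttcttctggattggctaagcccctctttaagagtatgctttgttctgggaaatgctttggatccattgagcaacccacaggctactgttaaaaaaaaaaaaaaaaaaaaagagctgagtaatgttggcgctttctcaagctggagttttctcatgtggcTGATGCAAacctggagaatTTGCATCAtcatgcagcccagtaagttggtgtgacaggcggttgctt

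The shares that follow were counted over the 300 bases from 250 before to 50 after the start. TGANTCA lay in 7.93% of all 27025 promoters of the table and in 5.13% of the 9954 promoters matched to tested genes. It lay in 5 of 14 squamous genes with a promoter (35.7%) and in 1 of 27 genes of the ATF4 list (3.70%). It also lay in 2 of 12 S100 and annexin genes (16.7%), 0 of 11 ERK output genes and 0 of 15 ribosome biogenesis genes. No share was counted for the matrix and invasion list. TGATGNAA lay in 4.06% of all promoters and in 2.22% of those of tested genes, against 10 of 27 genes of the ATF4 list (37.0%) and 3 of 14 squamous genes (21.4%). Neither motif contains the other. A match describes these letters only, and genes without one may still be bound elsewhere.

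With afatinib 12 of 25 squamous genes, 19 of 28 matrix and invasion genes and all 15 S100 and annexin genes tested were called higher than the empty vector, among them Sprr1a (log2 fold change over the empty vector 5.38 ± 0.16), Mmp13 (4.904 ± 0.19) and S100a4 (3.41 ± 0.14). Over all genes tested 21.7% were called higher and 23.4% lower. Of 29 genes of the amino acid response 24 were higher, among them Trib3 (2.699 ± 0.08) and Chac1 (2.76 ± 0.07). Of 18 genes of ERK output 9 were lower and 3 higher, with the feedback phosphatase Dusp6 among the lower (-2.45 ± 0.10). Cyclin D1 (Ccnd1), which stood high with DMSO, lay near the empty-vector level (-0.05 ± 0.06).

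Total counts ran between 17901974 in DMSO replicate 2 and 23126048 in empty vector replicate 1, and 12879 of 24883 genes passed the low-count filter. Tests were edgeR quasi-likelihood tests with Benjamini-Hochberg adjustment, a gene was called at an adjusted p under 0.05, and "rose" and "fell" below refer to called genes. Levels are counts scaled to library size (CPM) given for replicates 1 and 2 in that order, and ± after a log2 fold change is its standard error, with 2 libraries per group. With afatinib 2792 genes (21.7% of those tested) were higher than with the empty vector and 3017 (23.4%) were lower. Of these, 613 (4.76%) were higher and 454 (3.53%) lower by at least 2-fold. The lower count fell to 1984 without afatinib replicate 2, to 1953 without empty vector replicate 1 and to 1986 without empty vector replicate 2. In the DMSO comparison with the empty vector, 2771 genes (21.5%) were higher and 2662 (20.7%) lower, and the lower count was 1691 without DMSO replicate 2 and 1661 without empty vector replicate 1. At 2-fold or more these were 494 (3.84%) higher and 512 (3.98%) lower. Afatinib against DMSO had 2725 higher (21.2%) and 2772 lower (21.5%), of which 346 (2.69%) and 279 (2.17%) by at least 2-fold. The lower count there was 1749 without afatinib replicate 2 and 1692 without DMSO replicate 2. These 3 comparisons share libraries pairwise, so their values are set side by side and no overlap between them is counted.

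Fos, which encodes c-Fos itself, stood far above the empty vector with afatinib. It had 1107 and 1081 CPM with afatinib, 1163 and 1120.5 CPM with DMSO, and 40.6 and 50.5 CPM with the empty vector. Neither c-Fos group overlapped the empty vector, and the log2 fold change for afatinib was 4.59 ± 0.10 (adjusted p = 5.9e-12). The count does not separate the cell's own transcripts from those of the vector, and it would hold the vector's only in part if the insert is not the mouse sequence. Afatinib over DMSO was -0.06 ± 0.08 (adjusted p = 0.56), with a 95% interval of -0.24 to 0.11. Among the receptors that afatinib blocks, Egfr had 95.4 and 107 CPM with afatinib, 81.6 and 67.96 CPM with DMSO, and 154 and 136 CPM with the empty vector. Both c-Fos groups were below the empty vector and afatinib was above DMSO, a log2 fold change of -0.51 ± 0.09 against the empty vector for afatinib (adjusted p = 6.2e-04) and -0.95 ± 0.09 for DMSO (adjusted p = 5.4e-06). Erbb2, which has no known ligand and pairs with the other receptors, had 155 and 154 CPM with afatinib, 134 and 121 CPM with DMSO, and 143 and 149 CPM with the empty vector. It was not called against the empty vector with afatinib (0.08 ± 0.08, adjusted p = 0.42). Erbb3, the kinase-poor partner that couples to PI3-kinase, had 92.02 and 93.6 CPM with afatinib, 43.8 and 41.8 CPM with DMSO, and 45.4 and 37.2 CPM with the empty vector. Both afatinib libraries were above those of DMSO and the empty vector, at 1.17 ± 0.10 against the empty vector (adjusted p = 8.3e-07) and 1.12 ± 0.10 against DMSO (adjusted p = 2.2e-06). With UO126 Erbb3 had 58.8 and 69.3 CPM, also above both of those groups. Erbb4 had 1 count in empty vector replicate 1 and none in the other 5 libraries of these groups, and was not tested.

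**Figure D1:**
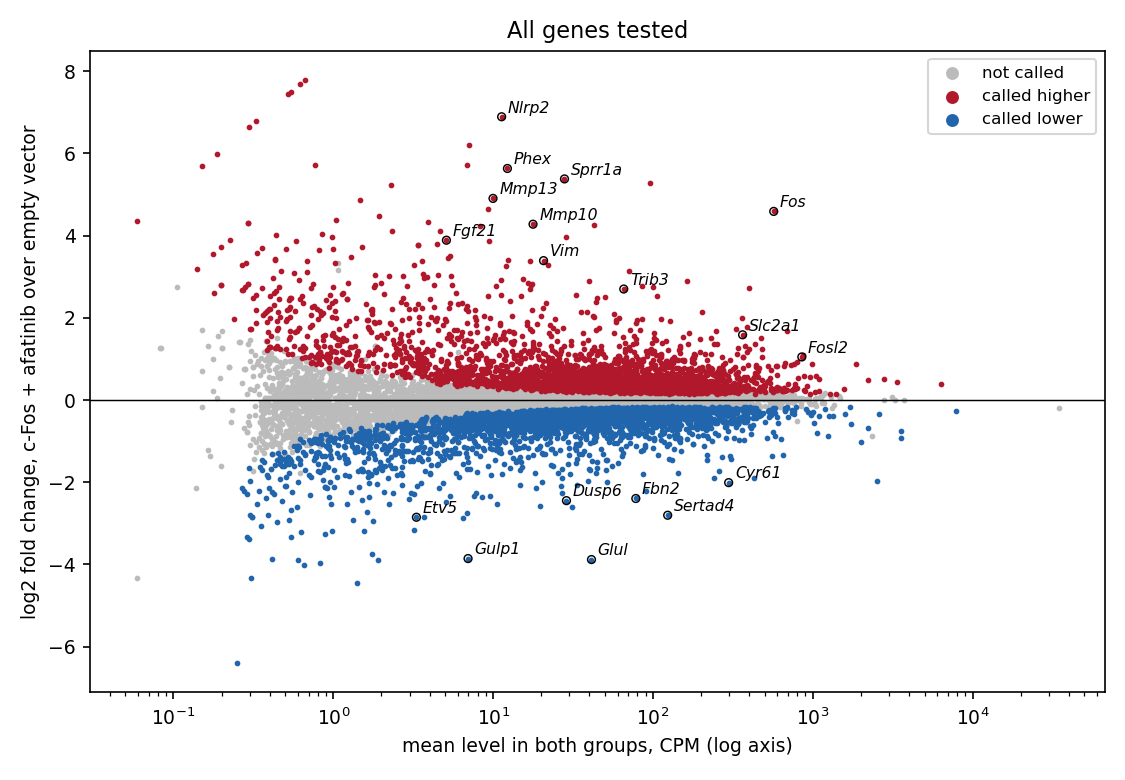
Log2 fold change of c-Fos with afatinib over the empty vector for the 12879 tested genes, against the mean CPM of both groups on a log axis; red and blue points are genes called higher and lower, grey points were not called. Fos and Sprr1a stand high among the rises, and Glul and Sertad4 stand out among the falls.

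The 10 largest rises that met the naming rule included Fos and Sprr1a. In a bulk culture fewer cells that use a gene and less RNA per cell cannot be told apart. Nlrp2, an NLR family protein, had 22.8 and 22.05 CPM with afatinib, 15.5 and 13.5 CPM with DMSO, and 0.173 and 0.194 CPM with the empty vector (6.89 ± 0.20 with afatinib on the log2 scale, adjusted p = 2.0e-11). Siglecg, a sialic acid-binding receptor known from B cells, had 14.5 and 13.5 CPM with afatinib, against 0.173 and 0.194 CPM with the empty vector (6.21 ± 0.29). Nfatc2, a calcium-regulated transcription factor, had 11.6 and 15.5 CPM with afatinib, against 0.173 and 0.3399 CPM with the empty vector (5.72 ± 0.28). All 3 were near 0 with the empty vector, so their fold changes rest on few counts there. Phex, an endopeptidase of phosphate balance, had 22.1 and 26.1 CPM with afatinib, 23.5 and 25.3 CPM with DMSO, and 0.563 and 0.388 CPM with the empty vector (5.63 ± 0.27), and the afatinib and DMSO libraries overlapped. Sprr1a, a cornified envelope precursor of squamous cells with a near relative in Sprr1b, had 58.1 and 51.02 CPM with afatinib, 34.5 and 32.96 CPM with DMSO, and 0.952 and 1.699 CPM with the empty vector (5.38 ± 0.16, adjusted p = 2.0e-11). Inpp4b, a phosphoinositide phosphatase, had 166 and 206 CPM with afatinib, against 4.85 and 4.76 CPM with the empty vector (5.27 ± 0.25). For Sprr1a the afatinib libraries were the highest, with no overlap between groups. Mmp13, a collagenase whose promoter is printed above, had 17.6 and 21.1 CPM with afatinib, 6.31 and 7.33 CPM with DMSO, and 0.693 and 0.583 CPM with the empty vector, and its afatinib libraries exceeded DMSO by 1.505 ± 0.13 (adjusted p = 9.3e-07). Ano1, a calcium-activated chloride channel, had 16.5 and 19.1 CPM with afatinib, 23.7 and 24.8 CPM with DMSO, and 0.649 and 0.777 CPM with the empty vector. Aqp1, a water channel, had 7.596 and 7.33 CPM with afatinib, 7.46 and 6.53 CPM with DMSO, and 0.2597 and 0.486 CPM with the empty vector. Against the empty vector these 2 rose by 4.64 ± 0.17 and 4.33 ± 0.24.

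Among the falls that met the naming rule the first was Glul, glutamine synthetase, which was lowest in the DMSO libraries. It had 4.87 and 5.59 CPM with afatinib, 2.29 and 1.705 CPM with DMSO, and 77.9 and 76.6 CPM with the empty vector. Its log2 fold changes were -3.88 ± 0.11 with afatinib (adjusted p = 2.0e-11) and -5.27 ± 0.13 with DMSO (adjusted p = 4.4e-12). Gulp1, an engulfment adaptor, had 0.876 and 0.917 CPM with afatinib, against 14.7 and 11.4 CPM with the empty vector (-3.86 ± 0.21). St6gal1, a sialyltransferase, had 0.584 and 0.688 CPM with afatinib, 3.59 and 3.98 CPM with DMSO, and 6.67 and 4.86 CPM with the empty vector, lowest with afatinib (-3.17 ± 0.26). The naming rule required both afatinib libraries of each fall to lie below both empty-vector libraries, so that describes the choice. Art4, an ADP-ribosyltransferase family member, had 1.899 and 1.19 CPM with afatinib, against 11.1 and 11.6 CPM with the empty vector. Kcnh1, a voltage-gated potassium channel, had 0.876 and 0.917 CPM with afatinib, against 7.099 and 5.83 CPM with the empty vector. Sertad4 had 28.4 and 33.5 CPM with afatinib, 159 and 151 CPM with DMSO, and 219 and 213 CPM with the empty vector (-2.803 ± 0.09 for afatinib, adjusted p = 2.7e-11). Sertad4 was lowest with afatinib and highest with the empty vector, with no overlap. Adamts6, a secreted metalloprotease, had 1.66 and 1.88 CPM with afatinib, against 13.03 and 10.8 CPM with the empty vector. Trp73, the p53 relative p73, had 5.89 and 5.32 CPM with afatinib, 9.14 and 11.02 CPM with DMSO, and 32.7 and 34.4 CPM with the empty vector. Etv5 and Megf6, the remaining 2 of the 10, appear with their groups below.

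**Figure D2:**
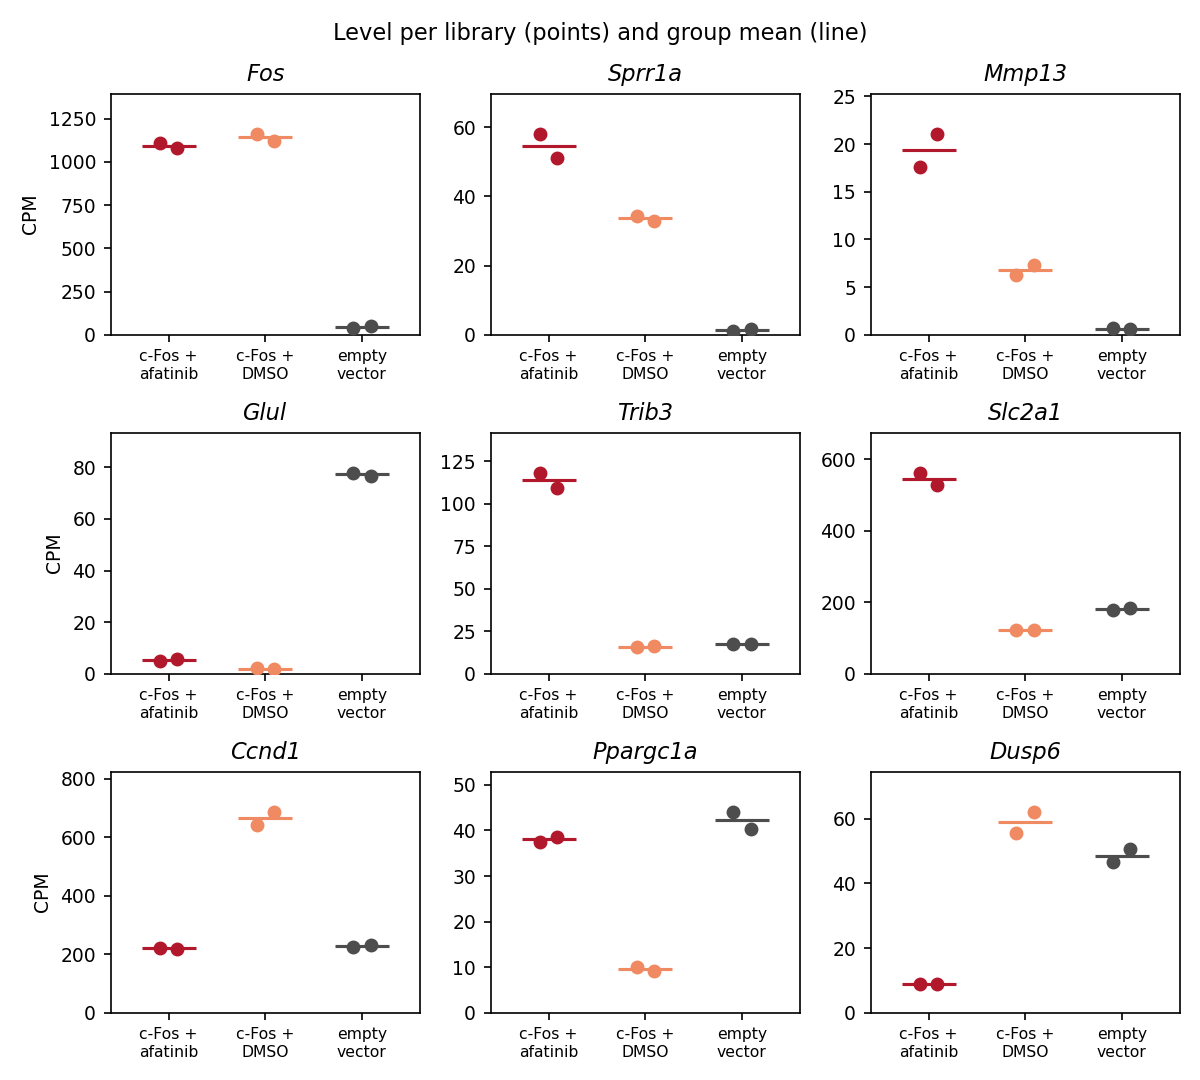
CPM of 9 genes in each library, with afatinib, DMSO and empty-vector libraries from left to right, each axis starting at 0; points are libraries and lines are means of 2 libraries. Fos sits at 1081 CPM or more in the c-Fos groups, Trib3 and Slc2a1 are highest with afatinib, and Ccnd1 is highest with DMSO.

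Some c-Fos changes remained under afatinib at their DMSO level. These genes were chosen as called in the same direction in both comparisons with the empty vector, at least 2-fold with afatinib, and with the 95% interval of afatinib over DMSO inside 0.5 on the log2 scale, so that agreement of the groups describes the choice and is not a test. Fos, Phex and Aqp1 led the rises. Blnk, a B-cell receptor adaptor, had 9.25 and 8.34 CPM with afatinib, 7.95 and 7.67 CPM with DMSO, and 0.346 and 0.6797 CPM with the empty vector. Sprr1b, the second small proline-rich gene, had 10.2 and 8.85 CPM with afatinib, 9.91 and 11.3 CPM with DMSO, and 0.693 and 1.07 CPM with the empty vector. In Blnk and Sprr1b the c-Fos libraries were several times the empty-vector level, with or without afatinib. On the low side Megf6 had 8.96 and 8.800 CPM with afatinib, 8.27 and 8.41 CPM with DMSO, and 52.5 and 55.01 CPM with the empty vector (-2.597 ± 0.09). Fbn2, the microfibril protein fibrillin 2, had 23.96 and 25.9 CPM with afatinib, 28.2 and 25.3 CPM with DMSO, and 137 and 125 CPM with the empty vector (-2.395 ± 0.08). Both fell to a small part of the empty-vector level. Hoxd10, a homeobox factor of limb and trunk patterning, had 11.3 and 11.6 CPM with afatinib, 11.9 and 11.7 CPM with DMSO, and 37.9 and 40.98 CPM with the empty vector (-1.79 ± 0.09). Its neighbour in the cluster, Hoxd11, had 8.96 and 7.61 CPM with afatinib, 6.86 and 7.78 CPM with DMSO, and 28.3 and 27.97 CPM with the empty vector (-1.77 ± 0.11). These homeobox genes sat at like levels in both c-Fos groups. Limch1, an actomyosin regulator, had 16.2 and 15.8 CPM with afatinib, 14.7 and 13.1 CPM with DMSO, and 64.1 and 60.4 CPM with the empty vector. Ptprz1, a receptor tyrosine phosphatase, had 18.4 and 21.1 CPM with afatinib, 18.2 and 15.5 CPM with DMSO, and 73.4 and 62.3 CPM with the empty vector. In every one of these genes both c-Fos groups lay on the same side of both empty-vector libraries.

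Other genes left the empty-vector level with afatinib while the DMSO libraries stayed within 0.5 of it on the log2 scale, by the 95% interval. The first by size was Trib3, a pseudokinase induced by ATF4, at 118 and 109 CPM with afatinib, 15.6 and 16.1 CPM with DMSO, and 17.4 and 17.7 CPM with the empty vector (2.699 ± 0.08 over the empty vector, adjusted p = 2.0e-11). Hmox1, heme oxygenase 1, had 103 and 82.6 CPM with afatinib, 24.7 and 25.2 CPM with DMSO, and 22.9 and 20.3 CPM with the empty vector (2.098 ± 0.11). Stbd1, a glycogen-binding protein, had 97.5 and 90.3 CPM with afatinib, 25.8 and 26.5 CPM with DMSO, and 24.4 and 23.9 CPM with the empty vector (1.96 ± 0.07). In all 3 genes the afatinib libraries were clear of both other groups, which the choice of new genes required, so it is not a test. Gadd45a, a growth arrest gene, had 54.6 and 50.9 CPM with afatinib, against 19.3 and 20.8 CPM with the empty vector. Steap3, an endosomal iron reductase, had 112 and 114 CPM with afatinib, against 42.1 and 44.7 CPM with the empty vector. Eif4ebp1, the translation repressor 4E-BP1, had 229.9 and 186 CPM with afatinib, 76.3 and 76.3 CPM with DMSO, and 86.4 and 86.03 CPM with the empty vector (1.27 ± 0.09). Rnf152, a lysosomal ubiquitin ligase, and Tmem238l completed the 8, with log2 fold changes of 1.35 ± 0.17 and 1.58 ± 0.12. In the UO126 libraries all 8 genes also lay above every DMSO and empty-vector library and below both afatinib libraries. There Trib3 had 54.1 and 56.5 CPM, Hmox1 had 45.1 and 48.3 CPM, and Stbd1 had 54.7 and 54.6 CPM.

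Among new falls Tk1, the thymidine kinase of S phase, had 28.3 and 26.6 CPM with afatinib, 82.3 and 87.4 CPM with DMSO, and 81.1 and 85.7 CPM with the empty vector (-1.603 ± 0.08, adjusted p = 3.2e-09). Rmi2, a partner of the BLM helicase, had 2.43 and 1.65 CPM with afatinib, against 6.15 and 6.02 CPM with the empty vector. Mb21d1, the DNA sensor cGAS, had 6.91 and 5.78 CPM with afatinib, against 15.7 and 14.9 CPM with the empty vector. Each was lower in both afatinib libraries than in any DMSO or empty-vector library, as the choice of new genes required. Slc16a6, a monocarboxylate transporter family gene, had 6.72 and 8.53 CPM with afatinib, against 21.9 and 20.4 CPM with the empty vector. Fjx1 had 23.7 and 20.7 CPM with afatinib, against 49.1 and 55.4 CPM with the empty vector. Eva1a, tied to autophagy, fell by 1.57 on the log2 scale. Kcnq1ot1, a noncoding RNA read antisense to Kcnq1, had a log2 fold change of -1.28 ± 0.16, and its reads cannot be told from Kcnq1 without strand. Rpl3, a ribosomal protein gene with processed copies, had -1.46 ± 0.12 at only 5.84 and 5.09 CPM with afatinib, against 14.7 and 15.4 CPM with the empty vector, and reads may be split among the copies. In the UO126 libraries all 8 falls likewise lay below every DMSO and empty-vector library, with Tk1 at 35.7 and 40.2 CPM.

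A small number of genes were called in opposite directions in the 2 comparisons with the empty vector. They were chosen for those calls, so the opposite directions describe the choice. Slc2a1, the glucose transporter GLUT1, had 562 and 529 CPM with afatinib, 123 and 123 CPM with DMSO, and 179 and 184 CPM with the empty vector. It was 1.59 ± 0.06 with afatinib (adjusted p = 2.8e-10) and -0.56 ± 0.06 with DMSO (adjusted p = 9.6e-06). Gpt2, a mitochondrial alanine transaminase, had 142 and 131 CPM with afatinib, 25.7 and 24.4 CPM with DMSO, and 34.3 and 34.9 CPM with the empty vector (1.98 ± 0.07 with afatinib, -0.46 ± 0.08 with DMSO). For both genes the 3 groups did not overlap. With UO126 Slc2a1 had 266 and 284 CPM and Gpt2 had 75.2 and 72.6 CPM, above the empty vector and below afatinib. Fut1, a fucosyltransferase, had 31.02 and 27.1 CPM with afatinib, 2.34 and 2.16 CPM with DMSO, and 4.59 and 3.399 CPM with the empty vector (2.85 ± 0.13 with afatinib). Il17rb, a receptor for interleukin 25, had 9.11 and 10.4 CPM with afatinib, 1.796 and 1.705 CPM with DMSO, and 3.46 and 2.72 CPM with the empty vector (1.65 ± 0.15 with afatinib). For Fut1 and Il17rb the DMSO call was lost without empty vector replicate 1, at adjusted p = 0.075 and 0.094. In the other direction Etv5, a PEA3 family factor induced by ERK, had 0.779 and 0.825 CPM with afatinib, 20.8 and 20.5 CPM with DMSO, and 6.06 and 5.58 CPM with the empty vector. It was -2.85 ± 0.19 with afatinib (adjusted p = 4.5e-08) and 1.82 ± 0.11 with DMSO (adjusted p = 3.0e-08). Hmga2, a chromatin architecture protein, had 1.17 and 1.38 CPM with afatinib, 10.99 and 12.8 CPM with DMSO, and 6.06 and 4.81 CPM with the empty vector. Serpinb10, a protease inhibitor, had 1.51 and 1.83 CPM with afatinib, 13.3 and 15.1 CPM with DMSO, and 6.88 and 8.01 CPM with the empty vector. For Etv5, Hmga2 and Serpinb10 the DMSO libraries lay above and the afatinib libraries below the empty vector. Dusp6, the phosphatase of ERK, had 8.91 and 8.89 CPM with afatinib, 55.7 and 62.2 CPM with DMSO, and 46.7 and 50.5 CPM with the empty vector, at -2.45 ± 0.10 with afatinib. Its DMSO call was lost without DMSO replicate 2 (adjusted p = 0.157) and without empty vector replicate 1 (adjusted p = 0.101).

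A last set, chosen the same way, held genes that DMSO-treated c-Fos cells had moved by at least 2-fold and that lay within 0.5 of the empty vector with afatinib, on the log2 scale. The afatinib intervals that placed them describe the choice, and so does the lack of overlap of the DMSO libraries with both other groups. Ccnd1, cyclin D1, had 223 and 217 CPM with afatinib, 643 and 687 CPM with DMSO, and 225 and 230.4 CPM with the empty vector. Lrp8, a lipoprotein and reelin receptor, had 57.6 and 56.2 CPM with afatinib, 129 and 132 CPM with DMSO, and 55.9 and 55.4 CPM with the empty vector. For both genes only the DMSO libraries stood high, with log2 fold changes of 1.54 ± 0.06 and 1.23 ± 0.07. Hbegf, an EGFR ligand, had 37.6 and 39.1 CPM with afatinib, 69.3 and 79.8 CPM with DMSO, and 29.95 and 31.8 CPM with the empty vector, and its call with afatinib (0.32 ± 0.08) was lost without empty vector replicate 1, at adjusted p = 0.052. Oraov1, also known as Lto1, had 41.7 and 38.2 CPM with afatinib, 117 and 130.1 CPM with DMSO, and 45.3 and 50.9 CPM with the empty vector. Its weak call for afatinib (-0.27 ± 0.09, adjusted p = 0.033) was lost without either afatinib library, at adjusted p = 0.062 and 0.265 for replicates 1 and 2. It was also lost without DMSO replicate 1 (0.056), DMSO replicate 2 (0.051) or empty vector replicate 2 (0.317). N4bp3 had 9.54 and 8.85 CPM with afatinib, 18.6 and 21.1 CPM with DMSO, and 7.88 and 8.11 CPM with the empty vector. Ripor2 had 10.6 and 9.72 CPM with afatinib, 24.9 and 25.3 CPM with DMSO, and 11.5 and 11.2 CPM with the empty vector. Both had their highest level with DMSO.

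On the other side, Ppargc1a, the coactivator of mitochondrial genes, had 37.5 and 38.6 CPM with afatinib, 10.01 and 9.15 CPM with DMSO, and 44.1 and 40.3 CPM with the empty vector. Vldlr, the very low density lipoprotein receptor, had 161 and 161 CPM with afatinib, 52.1 and 49.5 CPM with DMSO, and 155 and 140.0 CPM with the empty vector. In both genes the DMSO libraries alone were low, with log2 fold changes of -2.14 ± 0.12 and -1.54 ± 0.07. Sox6, a developmental transcription factor, had 57.5 and 64.3 CPM with afatinib, 19.8 and 15.7 CPM with DMSO, and 68.05 and 59.4 CPM with the empty vector. Klhl24, a ubiquitin ligase adaptor that acts on keratin in human skin, had 43.7 and 47.5 CPM with afatinib, 13.1 and 12.4 CPM with DMSO, and 48.05 and 39.6 CPM with the empty vector. Nrep had 94.5 and 95.8 CPM with afatinib, 21.01 and 28.1 CPM with DMSO, and 89.1 and 93.6 CPM with the empty vector. Sox6, Klhl24 and Nrep were lowest with DMSO, and so was Sipa1l2. It had 85.9 and 81.2 CPM with afatinib, 24.2 and 24.2 CPM with DMSO, and 76.4 and 74.1 CPM with the empty vector.

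**Figure D3:**
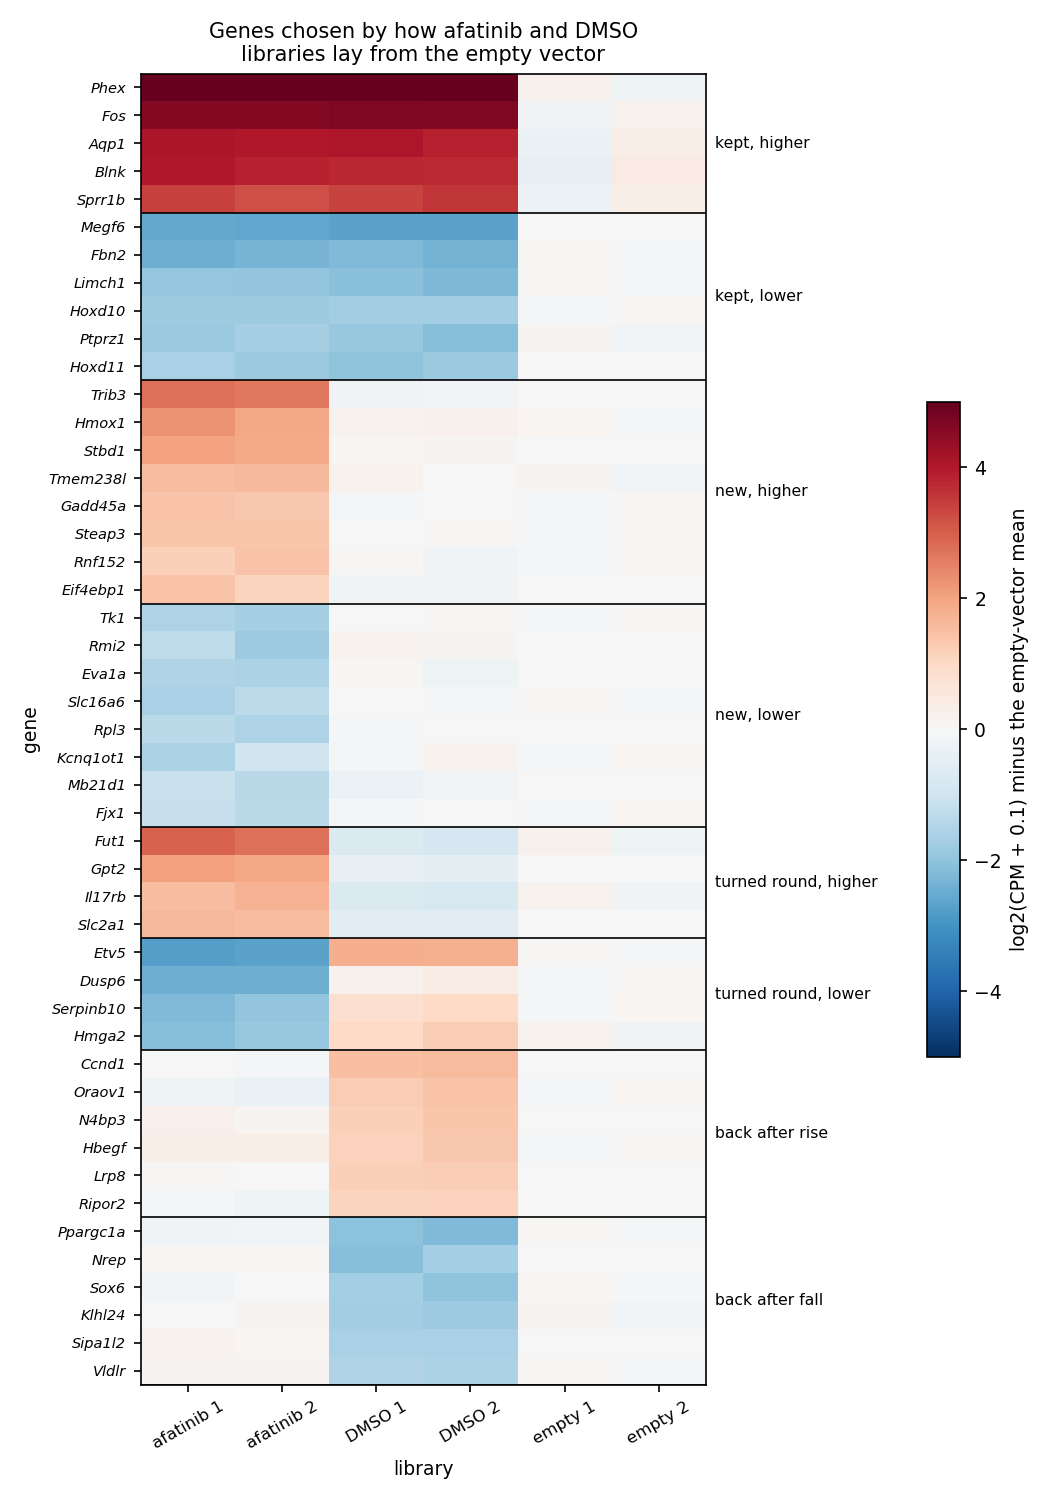
Log2(CPM + 0.1) of the chosen genes reported here in each library minus the mean of the 2 empty-vector libraries, with afatinib, DMSO and empty-vector libraries in columns from left to right. Kept genes keep one colour in the first 4 columns, new genes are coloured in the first 2 columns only, turned genes change colour between the groups, and genes that came back are coloured in the DMSO columns only.

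Lists of genes by role are described by how many tested members were called and by the median log2 fold change, to be read against 21.7% higher and 23.4% lower and a median of -0.03 over all genes with afatinib. For DMSO against the empty vector that median was -0.01. The lists were chosen with results of these libraries known, so their counts describe and do not test. Each list has its counts for DMSO against the empty vector beside those for afatinib, and both use the same empty-vector libraries.

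Of 9 tested AP-1 genes, 7 were called higher and 2 lower with afatinib, with a median of 0.65, and 3 were higher and 2 lower with DMSO. Against DMSO directly, afatinib had 3 of them higher and 3 lower, at a median of 0.06. Fosl2, which encodes the AP-1 subunit FRA-2, had 1164 and 1138 CPM with afatinib, 607 and 585 CPM with DMSO, and 581 and 532 CPM with the empty vector. Both afatinib libraries were above those of DMSO and the empty vector, at 1.05 ± 0.07 over the empty vector (adjusted p = 3.2e-08), and with UO126 Fosl2 had 974 and 1072 CPM. Fosl1, which encodes FRA-1 and is known to need ERK, had 8.08 and 7.88 CPM with afatinib, 30.6 and 33.6 CPM with DMSO, and 1.99 and 2.09 CPM with the empty vector, and its afatinib level lay between the other groups at 1.97 ± 0.15. Of 14 immediate-early genes, 6 were higher and 5 lower with afatinib. With DMSO 7 were higher and 5 lower, and the 5 lower were 3 without DMSO replicate 1 or 2. Cyr61, the matrix-associated protein CCN1, had 116 and 121 CPM with afatinib, 239 and 245 CPM with DMSO, and 466 and 488 CPM with the empty vector (-2.01 ± 0.06). Gadd45b, a stress gene, had 64.9 and 57.3 CPM with afatinib, 77.4 and 74.5 CPM with DMSO, and 153 and 156 CPM with the empty vector (-1.34 ± 0.07). Maff, a small MAF factor, had 3.51 and 3.03 CPM with afatinib, 21.7 and 20.6 CPM with DMSO, and 8.22 and 7.67 CPM with the empty vector. It lay below the empty vector with afatinib and above it with DMSO.

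EGFR family receptors, ligands and brakes numbered 16 tested genes, 6 of them higher and 6 lower with afatinib against 8 higher and 3 lower with DMSO. The 6 lower genes were 3 without empty vector replicate 1. Nrg2, a ligand of ERBB3 and ERBB4, had 23.1 and 17.9 CPM with afatinib, 23.3 and 21.5 CPM with DMSO, and 6.67 and 6.51 CPM with the empty vector (1.63 ± 0.14). Lrig1, a brake that speeds EGFR loss and marks skin stem cells, had 68.8 and 68.7 CPM with afatinib, 76.8 and 66.6 CPM with DMSO, and 194 and 176 CPM with the empty vector (-1.43 ± 0.08). Both c-Fos groups lay above the empty vector for Nrg2 and below it for Lrig1. Of 13 other receptor tyrosine kinases, 4 were higher and 1 lower with afatinib. With DMSO 4 were higher and 4 lower, and the 4 lower were 2 without any 1 library of the afatinib, DMSO or empty-vector groups. Met, the hepatocyte growth factor receptor, had 1001 and 1104 CPM with afatinib, 876 and 828 CPM with DMSO, and 717 and 683 CPM with the empty vector (0.59 ± 0.07, adjusted p = 1.5e-05). Fgfr3, a fibroblast growth factor receptor, had 27.4 and 26.4 CPM with afatinib, 15.2 and 13.01 CPM with DMSO, and 17.4 and 19.1 CPM with the empty vector. Ddr1, a collagen receptor, had 359 and 344 CPM with afatinib, 249 and 236 CPM with DMSO, and 247 and 251 CPM with the empty vector. Fgfr3 and Ddr1 were above both other groups with afatinib.

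ERK output was below the empty vector for 9 of 18 tested genes with afatinib and above it for 3, at a median of -0.62. With DMSO 4 were lower and 8 higher (median 0.21), and the 4 lower genes were 2 without DMSO replicate 1. Against DMSO directly, afatinib had 14 lower and 1 higher, and the 1 higher was 2 without UO126 replicate 1 or 2. Spry1, a Sprouty brake on RAS, had 2.63 and 2.75 CPM with afatinib, 9.14 and 9.89 CPM with DMSO, and 13.2 and 12.5 CPM with the empty vector (-2.26 ± 0.14, adjusted p = 2.8e-08). Etv5 and Dusp6, described above, were the largest 2 falls among its named members. The whole ERK output list summed to 748.3 and 684.7 CPM with UO126, against 614.4 and 610.2 CPM with afatinib. It summed to 1278 and 1344 CPM with DMSO, and 855.8 and 877.6 CPM with the empty vector.

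Squamous genes were more often higher than lower. Of 25 tested, 12 were higher and 1 lower with afatinib (median 0.55), and 14 were higher and 2 lower with DMSO (median 0.59). The 2 lower genes of DMSO were 1 without DMSO replicate 2 or empty vector replicate 1. S100a14, a calcium-binding protein of differentiating epithelium, had 11.2 and 11.6 CPM with afatinib, 13.1 and 11.9 CPM with DMSO, and 2.42 and 2.23 CPM with the empty vector (2.29 ± 0.16), beside Sprr1a and Sprr1b. Of 14 basal keratinocyte and hair follicle genes, 3 were higher and 6 lower with afatinib. With DMSO 3 were higher and 5 lower. Itga6, the hemidesmosome integrin, had 606 and 645 CPM with afatinib, 665 and 632 CPM with DMSO, and 256 and 231 CPM with the empty vector (1.36 ± 0.07). Trp63, the p63 factor of stratified epithelium, had 123 and 139.7 CPM with afatinib, 169 and 171 CPM with DMSO, and 291 and 281 CPM with the empty vector (-1.12 ± 0.09). Krt17, a keratin with near relatives in Krt14 and Krt16, had 1328 and 1304 CPM with afatinib, 1749 and 1851 CPM with DMSO, and 2603 and 2732 CPM with the empty vector (-1.02 ± 0.06). For both, the afatinib libraries were lowest and the empty-vector libraries highest.

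Of 14 Hedgehog genes, 2 were higher and 7 lower with afatinib, against 1 higher and 10 lower with DMSO. The 7 lower genes were 4 without afatinib replicate 2 and 3 without empty vector replicate 1, and the 2 higher were 1 without afatinib replicate 2 or empty vector replicate 2. The 1 higher gene of DMSO was 0 without DMSO replicate 1 or empty vector replicate 2 and 2 without UO126 replicate 1 or 2. Gas1, a Hedgehog co-receptor, had 45.96 and 53.6 CPM with afatinib, 36.95 and 36.6 CPM with DMSO, and 117 and 120.2 CPM with the empty vector (-1.25 ± 0.08). Bcl2, a survival gene and GLI target, had 7.304 and 8.89 CPM with afatinib, 27.3 and 26.02 CPM with DMSO, and 33.1 and 31.3 CPM with the empty vector (-1.99 ± 0.10). Ccnd2, cyclin D2, had 165 and 167 CPM with afatinib, 332 and 337 CPM with DMSO, and 466 and 435 CPM with the empty vector (-1.44 ± 0.06). For Bcl2 and Ccnd2 most of the distance from the empty vector was between afatinib and DMSO. The Hedgehog list as a whole went the other way. Against DMSO directly, afatinib had 7 of its genes higher and 2 lower. The list median against the empty vector was -0.19 with afatinib and -0.40 with DMSO.

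Matrix and invasion genes were higher for 19 of 28 tested and lower for 7 with afatinib (median 0.49), and higher for 18 and lower for 7 with DMSO (median 0.64). Mmp10, a stromelysin, had 31.7 and 35.8 CPM with afatinib, 13.6 and 14.2 CPM with DMSO, and 1.73 and 1.75 CPM with the empty vector (4.28 ± 0.13, adjusted p = 2.5e-11). Plaur, the urokinase receptor whose promoter is printed above, had 42.3 and 38.04 CPM with afatinib, 74.02 and 70.7 CPM with DMSO, and 3.98 and 4.27 CPM with the empty vector (3.28 ± 0.10), with DMSO above afatinib by 0.85 on the log2 scale. Mmp13 and Mmp10 were highest with afatinib. Of 13 genes of epithelial-mesenchymal transition, 6 were higher and 2 lower with afatinib. With DMSO 5 were higher and 4 lower, and the 5 higher were 3 without DMSO replicate 1 or empty vector replicate 2. Vim, the intermediate filament vimentin, had 38.5 and 37.04 CPM with afatinib, 80.6 and 78.9 CPM with DMSO, and 3.46 and 3.74 CPM with the empty vector (3.39 ± 0.10, adjusted p = 2.0e-11). Both c-Fos groups exceeded the empty vector, DMSO more than afatinib. Zeb2, a transition factor, had 21.7 and 25.03 CPM with afatinib, 21.1 and 18.98 CPM with DMSO, and 15.2 and 11.9 CPM with the empty vector. Snai2, another such factor, had 43.8 and 46.5 CPM with afatinib, 55.5 and 55.6 CPM with DMSO, and 78.7 and 79.3 CPM with the empty vector, lower in both c-Fos groups. All 15 tested S100 and annexin genes, which bind calcium, were higher in both comparisons, at medians of 0.60 with afatinib and 0.80 with DMSO. S100a4, known for cell motility, had 22.7 and 22.8 CPM with afatinib, 27.9 and 29.3 CPM with DMSO, and 1.82 and 2.48 CPM with the empty vector (3.41 ± 0.14). S100a3, known from hair, had 7.596 and 6.600 CPM with afatinib, 8.49 and 9.09 CPM with DMSO, and 1.52 and 2.04 CPM with the empty vector. S100a6 had 1091 and 1018 CPM with afatinib, 1157 and 1268 CPM with DMSO, and 323 and 335 CPM with the empty vector (1.68 ± 0.07).

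**Figure D4:**
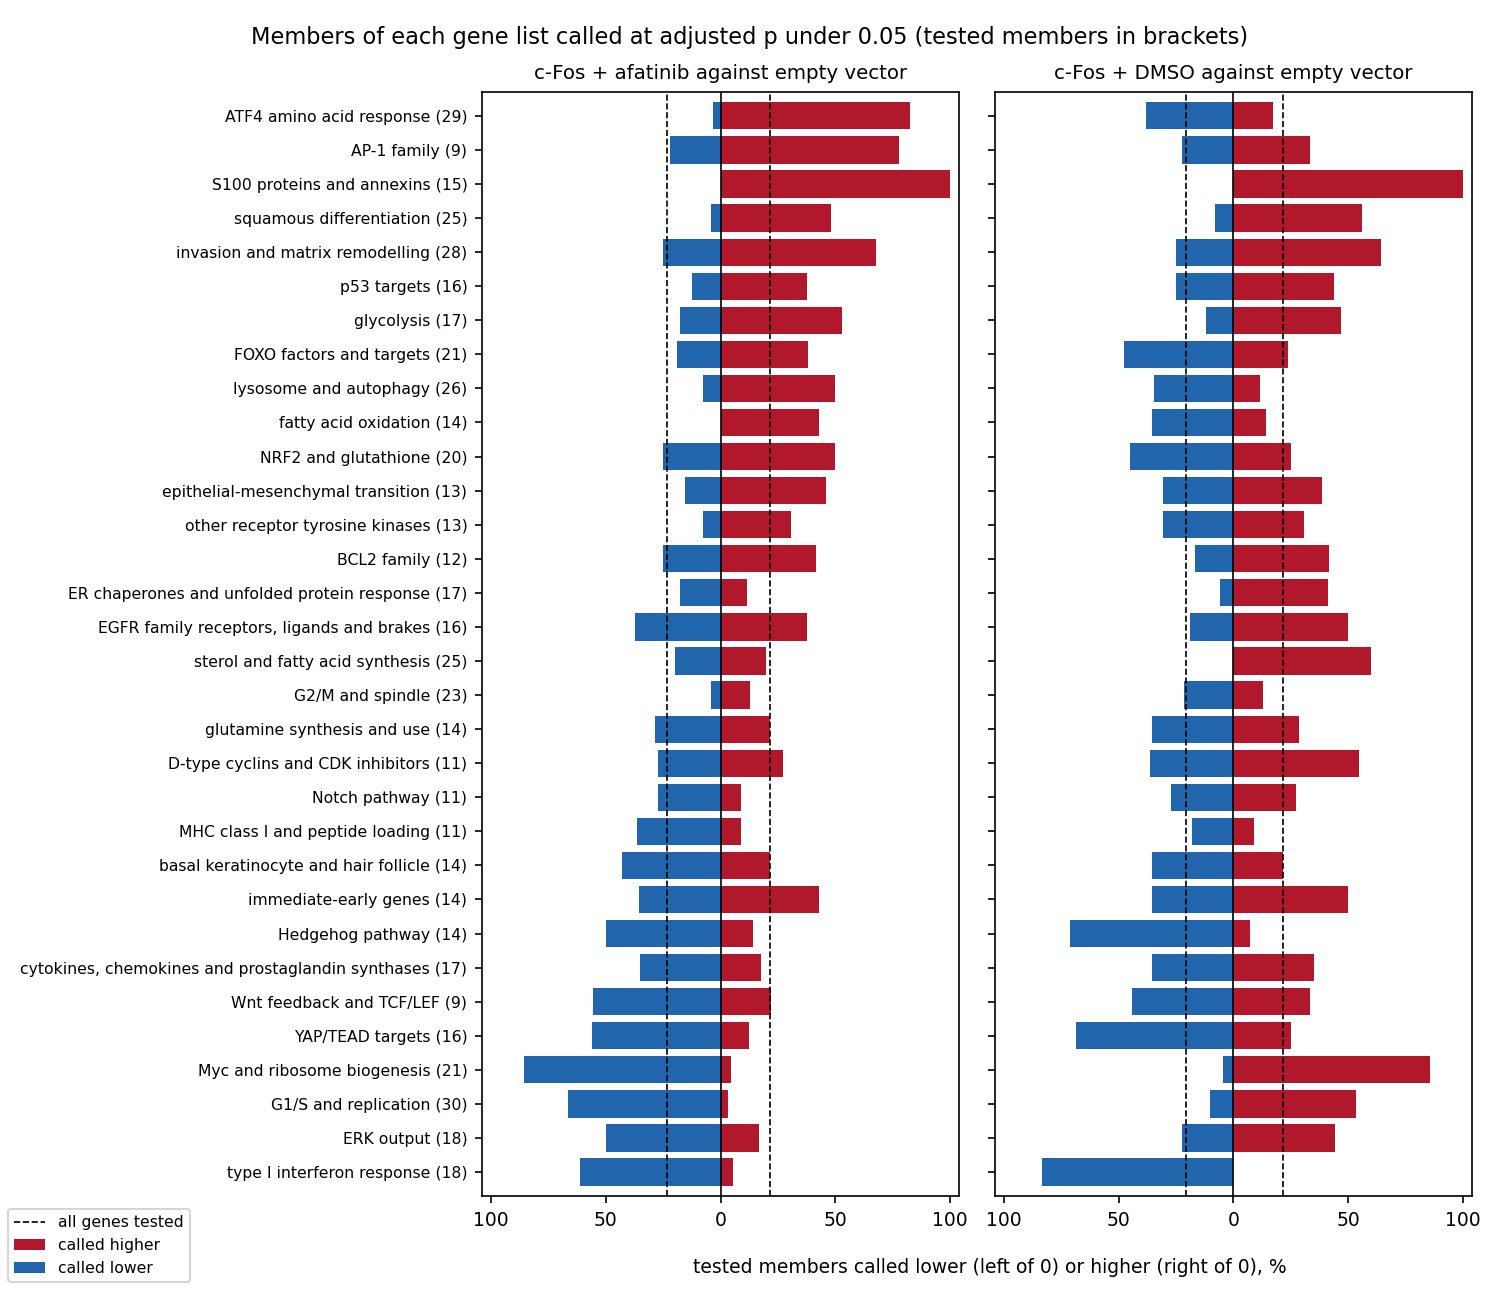
Percent of tested members called lower (left of 0) and higher (right of 0) for each of the 32 lists, for c-Fos with afatinib against the empty vector on the left panel and for the DMSO group against it on the right; dashed lines are the share over all genes tested, 21.7% higher and 23.4% lower with afatinib. ATF4, ribosome biogenesis, replication and ERK lists differ in direction between the panels, while the S100, squamous, invasion and interferon lists point the same way in both.

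Among replication genes and among ribosome biogenesis genes, more were called lower than higher with afatinib, and more higher than lower with DMSO. These counts are large enough that some genes of each list must be in both, but their number was not counted. Against DMSO directly, afatinib had 25 of 30 replication genes lower and 1 higher. Of 21 ribosome biogenesis genes, 20 were lower and 0 higher in that comparison. Of 30 G1/S and replication genes, 20 were lower and 1 higher with afatinib (median -0.42), against 3 lower and 16 higher with DMSO (median 0.22). The 1 higher gene was 0 without either afatinib library or empty vector replicate 2, and the 3 lower genes of DMSO were 1 without empty vector replicate 1. Cdc6, a replication licensing factor, had 12.4 and 10.9 CPM with afatinib, 44.5 and 40.9 CPM with DMSO, and 34.3 and 36.6 CPM with the empty vector (-1.61 ± 0.09). Ccne1, cyclin E1, had 12.6 and 11.6 CPM with afatinib, 17.96 and 20.5 CPM with DMSO, and 29.4 and 30.7 CPM with the empty vector (-1.31 ± 0.10). Fen1, the flap endonuclease, had 73.96 and 64.2 CPM with afatinib, 119 and 126 CPM with DMSO, and 134 and 137 CPM with the empty vector (-0.97 ± 0.07). For Ccne1 and Fen1 the DMSO libraries also lay below the empty vector. Of 21 Myc and ribosome biogenesis genes, 18 were lower and 1 higher with afatinib (median -0.42), and 1 was lower and 18 higher with DMSO (median 0.37). Nop56, a nucleolar RNP protein, had 81.99 and 83.1 CPM with afatinib, 225 and 226 CPM with DMSO, and 184 and 190.1 CPM with the empty vector (-1.18 ± 0.06). Nolc1, a nucleolar phosphoprotein, had 159 and 153 CPM with afatinib, 347 and 369.8 CPM with DMSO, and 309 and 314 CPM with the empty vector (-0.998 ± 0.06). The DMSO call of Cdc6 (0.27) was lost with the DESeq2 Wald test (adjusted p = 0.053). It was also lost without DMSO replicate 1 or empty vector replicate 1, at log2 fold changes of 0.23 and 0.25. The DMSO call of Nolc1 (0.20) was lost with library size alone (adjusted p = 0.053). It was also lost without DMSO replicate 2, empty vector replicate 1 or empty vector replicate 2, at 0.16, 0.22 and 0.21. The ribosome biogenesis list summed to 3813 and 3616 CPM with UO126, against 2882 and 2853 CPM with afatinib. It summed to 5085 and 5375 CPM with DMSO, and 4010 and 4026 CPM with the empty vector. Myc itself had 83.9 and 76.9 CPM with afatinib, 101 and 110.1 CPM with DMSO, and 161 and 179.5 CPM with the empty vector (-1.08 ± 0.08, adjusted p = 9.6e-08), so that the DMSO libraries lay below the empty vector for this gene. Of 23 spindle genes, 3 were higher and 1 lower with afatinib. DMSO had 3 higher and 5 lower. The 3 higher were 1 without DMSO replicate 2 or empty vector replicate 1, and the 5 lower were 2 without either of these and 3 without empty vector replicate 2. Nusap1, a spindle protein, had 128 and 128 CPM with afatinib, 87.8 and 96.6 CPM with DMSO, and 104 and 104 CPM with the empty vector (0.297 ± 0.08). The 3 higher genes of afatinib ranged from 1 without empty vector replicate 2 to 6 without UO126 replicate 1 or 2, with 5 without DMSO replicate 1 or 2, and its 1 lower gene was 0 without any 1 of the 4 libraries compared.

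The D-type cyclins and cyclin-dependent kinase inhibitors had 3 of 11 genes higher and 3 lower with afatinib. DMSO had 6 higher and 4 lower, and the 4 lower were 2 without DMSO replicate 1 or empty vector replicate 1. Cdkn1a, the inhibitor p21, had 87.5 and 83.8 CPM with afatinib, 35.4 and 32.8 CPM with DMSO, and 14.8 and 15.2 CPM with the empty vector (2.51 ± 0.08, adjusted p = 2.7e-11), highest with afatinib and lowest with the empty vector. Cdkn2b, the inhibitor p15, had 80.6 and 75.4 CPM with afatinib, 68.5 and 66.9 CPM with DMSO, and 39.7 and 43.2 CPM with the empty vector (0.91 ± 0.07). Of 16 p53 targets, 6 were higher and 2 lower with afatinib, against 7 higher and 4 lower with DMSO. Btg2, an antiproliferative gene, had 12.8 and 10.4 CPM with afatinib, 9.69 and 9.43 CPM with DMSO, and 27.2 and 25.2 CPM with the empty vector (-1.18 ± 0.12). Of 12 BCL2 family genes, 5 were higher and 3 lower, and the 3 lower were 1 without afatinib replicate 1, afatinib replicate 2 or empty vector replicate 1. For this family DMSO had 5 higher and 2 lower. The 5 higher were 3 without empty vector replicate 1 or 2, and the 2 lower were 0 without DMSO replicate 1 or empty vector replicate 1 and 1 without DMSO replicate 2 or empty vector replicate 2. Pmaip1, the death gene NOXA, had 149.9 and 154 CPM with afatinib, 79.5 and 91.9 CPM with DMSO, and 76.5 and 70.2 CPM with the empty vector (1.05 ± 0.10). Bcl2l11, the death gene BIM, had 7.01 and 10.1 CPM with afatinib, 6.75 and 5.51 CPM with DMSO, and 4.16 and 4.08 CPM with the empty vector (1.06 ± 0.18). Bid had 37.9 and 33.2 CPM with afatinib, 71.8 and 73.98 CPM with DMSO, and 54.1 and 54.7 CPM with the empty vector (-0.61 ± 0.08).

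The ATF4 list was called higher for 24 of 29 tested genes and lower for 1 with afatinib, at a median of 0.77. With DMSO 5 were higher and 11 lower (median -0.13), and against DMSO directly afatinib had 27 higher and 0 lower. The 1 lower gene was 0 without any 1 of the 4 libraries compared. The 11 lower genes of DMSO were 6 without DMSO replicate 1, 6 without DMSO replicate 2, 5 without empty vector replicate 1 and 7 without empty vector replicate 2, and the 5 higher were 2 without DMSO replicate 2 or empty vector replicate 1 and 3 without empty vector replicate 2. Fgf21, a stress hormone whose promoter is printed above, had 10.5 and 8.62 CPM with afatinib, 0.435 and 0.227 CPM with DMSO, and 0.736 and 0.534 CPM with the empty vector (3.89 ± 0.22, adjusted p = 1.2e-08), and its levels outside afatinib rest on few counts. Chac1, a glutathione-degrading enzyme, had 182 and 164 CPM with afatinib, 29.7 and 29.2 CPM with DMSO, and 25.9 and 25.2 CPM with the empty vector (2.76 ± 0.07, adjusted p = 1.9e-11). Slc7a11, the cystine transporter, is given because its promoter is printed above and was chosen after its values were seen. It had 81.9 and 89.9 CPM with afatinib, 30.04 and 31.9 CPM with DMSO, and 46.8 and 41.3 CPM with the empty vector (0.96 ± 0.11, adjusted p = 3.9e-05). The afatinib libraries of Fgf21, Chac1 and Slc7a11 were clear of both other groups. The whole ATF4 list summed to 5811 and 5810 CPM with UO126, against 7604 and 6963 CPM with afatinib. It summed to 4231 and 4295 CPM with DMSO, and 4328 and 4348 CPM with the empty vector. For ER chaperones and the unfolded protein response, 2 of 17 were higher and 3 lower, with 6 higher without UO126 replicate 1 or 2. DMSO had 7 of them higher and 1 lower. The 7 higher were 4 without DMSO replicate 2, and the 1 lower was 2 without DMSO replicate 1 or UO126 replicate 1 and 0 without DMSO replicate 2 or empty vector replicate 1. Herpud1, a degradation factor of the ER, had 145 and 146 CPM with afatinib, 86.5 and 71.4 CPM with DMSO, and 74.97 and 72.1 CPM with the empty vector (0.98 ± 0.08). Xbp1 had 107 and 105 CPM with afatinib, 111 and 104 CPM with DMSO, and 80.6 and 83.02 CPM with the empty vector (0.37 ± 0.06). Sdf2l1, an ER-resident protein, had 26.8 and 25.7 CPM with afatinib, 35.9 and 38.3 CPM with DMSO, and 33.3 and 37.00 CPM with the empty vector (-0.42 ± 0.08).

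Of 20 NRF2 and glutathione genes, 10 were higher and 5 lower with afatinib. The 5 lower were 3 without afatinib replicate 1 and 2 without afatinib replicate 2, empty vector replicate 1 or empty vector replicate 2. DMSO had 5 higher and 9 lower here, and the 5 higher were 3 without empty vector replicate 2. Srxn1, a sulfiredoxin, had 131 and 121 CPM with afatinib, 72.3 and 71.7 CPM with DMSO, and 31.9 and 33.6 CPM with the empty vector (1.95 ± 0.07). Gsta3, a glutathione transferase with near-identical relatives, had 2.29 and 3.21 CPM with afatinib, 1.69 and 2.39 CPM with DMSO, and 14.02 and 14.5 CPM with the empty vector (-2.37 ± 0.17). Of 26 lysosome and autophagy genes, 13 were higher and 2 lower. Those 2 lower were 1 in each fit without 1 of the 8 libraries. Among the lysosome genes DMSO had 3 higher and 9 lower, and the 3 higher were 6 without UO126 replicate 2. Sqstm1, the autophagy receptor p62, had 696 and 652 CPM with afatinib, 317 and 304 CPM with DMSO, and 285 and 282 CPM with the empty vector (1.25 ± 0.06). Npc1, a lysosomal cholesterol exporter, had 94.6 and 93.7 CPM with afatinib, 69.2 and 62.2 CPM with DMSO, and 55.8 and 49.2 CPM with the empty vector (0.84 ± 0.08). Gla, a lysosomal galactosidase, had 22.8 and 24.5 CPM with afatinib, 14.04 and 13.9 CPM with DMSO, and 13.3 and 13.4 CPM with the empty vector (0.82 ± 0.09). Of 21 FOXO factors and targets, 8 were higher and 4 lower. For these DMSO had 5 higher and 10 lower, and the 5 higher were 2 without DMSO replicate 1 and 3 without empty vector replicate 1 or 2. Klf2, a Kruppel-like factor, had 24.5 and 20.1 CPM with afatinib, 13.2 and 13.5 CPM with DMSO, and 7.66 and 9.71 CPM with the empty vector (1.36 ± 0.17). Pik3ip1, an inhibitor of PI3-kinase, had 11.7 and 11.6 CPM with afatinib, 14.04 and 13.3 CPM with DMSO, and 29.2 and 27.97 CPM with the empty vector (-1.29 ± 0.09).

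Fuel genes were called in both directions. Of 17 glycolysis genes, 9 were higher and 3 lower with afatinib, with Slc2a1 high and Hk2, hexokinase 2, low at 30.7 and 31.5 CPM with afatinib, 71.8 and 68.6 CPM with DMSO, and 90.8 and 87.98 CPM with the empty vector (-1.52 ± 0.07). Glycolysis had 8 higher and 2 lower with DMSO, and the 8 higher were 5 without DMSO replicate 2 or empty vector replicate 2. Pgk1, phosphoglycerate kinase, had 46.2 and 49.9 CPM with afatinib, 50.9 and 51.6 CPM with DMSO, and 28.9 and 29.9 CPM with the empty vector (0.71 ± 0.08). Of 14 fatty acid oxidation genes, 6 were higher and 0 lower. Fatty acid oxidation had 2 higher and 5 lower with DMSO, and the 5 lower were 3 without DMSO replicate 2. Cpt1a, the gate of mitochondrial fatty acid entry, had 201 and 206 CPM with afatinib, 63.3 and 59.3 CPM with DMSO, and 96.2 and 87.2 CPM with the empty vector (1.15 ± 0.07, adjusted p = 1.6e-08), with DMSO below the empty vector. Fabp5, a fatty acid carrier, had 16.2 and 13.5 CPM with afatinib, 16.4 and 17.9 CPM with DMSO, and 5.97 and 7.87 CPM with the empty vector (1.103 ± 0.14). Acads, a short-chain dehydrogenase, had 41.8 and 36.9 CPM with afatinib, 29.8 and 29.7 CPM with DMSO, and 28.9 and 27.9 CPM with the empty vector (0.47 ± 0.09). Of 14 glutamine genes, 3 were higher and 4 lower. The 3 higher were 6 without UO126 replicate 1 or 2, and the 4 lower were 2 without any 1 library of the afatinib, DMSO or empty-vector groups. With DMSO 4 glutamine genes were higher and 5 lower. Ppat, the first enzyme of purine synthesis from glutamine, had 56.97 and 57.02 CPM with afatinib, 109 and 113 CPM with DMSO, and 105 and 102 CPM with the empty vector (-0.86 ± 0.06).

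Of 25 sterol and fatty acid synthesis genes, 5 were higher and 5 lower with afatinib (median 0.01) against 15 higher and 0 lower with DMSO (median 0.24). The 5 higher were 3 without afatinib replicate 1, empty vector replicate 1 or empty vector replicate 2, and the 5 lower were 3 without afatinib replicate 2 or empty vector replicate 1. Cyp51, a sterol demethylase, had 452 and 454 CPM with afatinib, 669.6 and 715 CPM with DMSO, and 612 and 602 CPM with the empty vector (-0.42 ± 0.07). Its DMSO call (0.19) was lost with library size alone (adjusted p = 0.121), the replicate block (adjusted p = 0.064) and other settings. Elovl6, a fatty acid elongase, had 131 and 132 CPM with afatinib, 186 and 177 CPM with DMSO, and 184 and 176 CPM with the empty vector (-0.46 ± 0.06).

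Type I interferon genes were mostly lower, with 1 of 18 higher and 11 lower with afatinib (median -0.87) and 0 higher and 15 lower with DMSO (median -0.99). Ddx58, the RNA sensor RIG-I, had 32.7 and 39.1 CPM with afatinib, 25.5 and 23.3 CPM with DMSO, and 73.7 and 62.1 CPM with the empty vector (-0.92 ± 0.10). Irf9, a subunit of the interferon-activated complex, had 5.697 and 6.42 CPM with afatinib, 4.35 and 4.205 CPM with DMSO, and 11.9 and 10.2 CPM with the empty vector (-0.87 ± 0.13). Stat2, its partner, was the exception among those named, with 35.6 and 35.2 CPM with afatinib, 21.3 and 20.9 CPM with DMSO, and 28.3 and 26.7 CPM with the empty vector (0.36 ± 0.08). Of 11 MHC class I and peptide loading genes, 1 was higher and 4 lower, with 2 lower without afatinib replicate 2 and 2 higher without UO126 replicate 1 or 2. MHC class I genes had 1 higher and 2 lower with DMSO. The 1 higher was 2 without UO126 replicate 1, 3 without UO126 replicate 2 and 0 without empty vector replicate 1, and the 2 lower were 1 without empty vector replicate 1 or 2. Tapbp, which loads peptides on MHC class I, had 128 and 123 CPM with afatinib, 101 and 96.8 CPM with DMSO, and 151 and 156 CPM with the empty vector (-0.29 ± 0.06). H2-T23 had 3.41 and 2.93 CPM with afatinib, 4.08 and 3.47 CPM with DMSO, and 5.54 and 5.24 CPM with the empty vector. H2-D1 had 29.7 and 26.7 CPM with afatinib, 29.01 and 27.4 CPM with DMSO, and 20.4 and 22.8 CPM with the empty vector, and reads of these 2 genes may be shared with close relatives.

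Among signalling and adhesion lists, YAP/TEAD targets had 2 of 16 genes higher and 9 lower with afatinib (median -0.34) and 4 higher and 11 lower with DMSO (median -0.44). The 2 higher were 1 without afatinib replicate 1, empty vector replicate 1 or empty vector replicate 2, and the 4 of DMSO were 2 without empty vector replicate 2. Ctgf, the matrix protein CCN2, had 9.35 and 9.08 CPM with afatinib, 33.6 and 33.5 CPM with DMSO, and 44.7 and 43.99 CPM with the empty vector (-2.27 ± 0.08, adjusted p = 1.8e-10). Nuak2, a kinase of actin tension, had 4.87 and 4.22 CPM with afatinib, 6.86 and 6.76 CPM with DMSO, and 13.6 and 14.2 CPM with the empty vector (-1.61 ± 0.15). Both were lowest with afatinib. Of 11 Notch genes, 1 was higher and 3 lower. The 1 higher was 2 without afatinib replicate 1 and 0 without afatinib replicate 2 or empty vector replicate 2. Notch genes had 3 higher and 3 lower with DMSO. Dll1, a Notch ligand, had 73.5 and 64.8 CPM with afatinib, 33.9 and 34.3 CPM with DMSO, and 129 and 138 CPM with the empty vector (-0.95 ± 0.07). Rbpj, the DNA-binding partner of Notch, had 55.8 and 57.8 CPM with afatinib, 70.2 and 71.8 CPM with DMSO, and 73.8 and 71.03 CPM with the empty vector (-0.35 ± 0.07). Of 9 Wnt genes, 2 were higher and 5 lower, and the 5 lower were 3 without afatinib replicate 1 or empty vector replicate 2 and 2 without empty vector replicate 1. Wnt genes had 3 higher and 4 lower with DMSO. The Wnt list median was -0.31 with afatinib and -0.18 with DMSO, and the gene given next went the other way with afatinib. Lgr4, an R-spondin receptor, had 303 and 335 CPM with afatinib, 169.7 and 173 CPM with DMSO, and 239.7 and 219 CPM with the empty vector (0.48 ± 0.07). Of 17 cytokine, chemokine and prostaglandin synthase genes, 3 were higher and 6 lower. These had 6 higher and 6 lower with DMSO, and the 6 higher were 3 without DMSO replicate 2. Ptges, a prostaglandin E synthase, had 8.86 and 7.33 CPM with afatinib, 16.7 and 16.1 CPM with DMSO, and 1.17 and 0.777 CPM with the empty vector (3.03 ± 0.21), and Lif and the chemokine Cxcl1 had -0.73 ± 0.09 and -1.05 ± 0.14.

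ASZ001 is an epithelial line, and its 10 keratinocyte markers were all tested, 4 of them higher and 4 lower with afatinib and 3 higher and 3 lower with DMSO, with a summed level between 19620 and 23150 CPM over the 6 libraries. The fibroblast markers summed to 11.8 and 12.97 CPM with afatinib, 13.2 and 15.97 CPM with DMSO, and 6.62 and 6.75 CPM with the empty vector, with 5 of 12 tested, 2 higher and 1 lower with afatinib, and Lum and Thy1 at 0. Of 9 endothelial markers 3 were tested, and the whole list summed to 146.3 and 147.2 CPM with afatinib, 167.8 and 153.4 CPM with DMSO, and 110.2 and 101.4 CPM with the empty vector, with Kdr, Cldn5 and Tie1 at 0. In that list 2 were higher and 1 lower with afatinib, and the higher count was 1 without afatinib replicate 1, empty vector replicate 1 or empty vector replicate 2, while the lower was 0 without afatinib replicate 1 or empty vector replicate 1. Flt1, a VEGF receptor, had 87.98 and 87.8 CPM with afatinib, 108 and 97.5 CPM with DMSO, and 38.4 and 32.5 CPM with the empty vector. Col1a2, a collagen chain, had 4.38 and 4.49 CPM with afatinib, 5.61 and 7.22 CPM with DMSO, and 0.693 and 1.02 CPM with the empty vector. Of 9 leukocyte markers 2 were tested and 1 was higher, with sums of 9.11 and 8.71 CPM with afatinib, 6.80 and 6.25 CPM with DMSO, and 6.10 and 5.39 CPM with the empty vector, and Tyrobp at 0. Cd68, a marker of macrophage lysosomes, had 4.92 and 4.95 CPM with afatinib, 4.68 and 5.000 CPM with DMSO, and 5.93 and 5.15 CPM with the empty vector. The other tested leukocyte marker was the 1 called higher, with afatinib and also with DMSO. The median log2 fold change of these 2 markers was 2.16 with afatinib and 1.49 with DMSO. A median of 2 genes lies midway between them. As Cd68 was not raised, the other marker rose by more than these medians. Of 7 melanocyte markers 2 were tested and 1 was lower, a call that was lost without afatinib replicate 1 or empty vector replicate 1, with Tyr at 0 and sums of 40.6 and 45.4 CPM with afatinib, 47.6 and 44.2 CPM with DMSO, and 60.9 and 52.2 CPM with the empty vector. Mitf, the melanocyte factor, had 31.99 and 36.9 CPM with afatinib, 38.7 and 34.03 CPM with DMSO, and 53.9 and 43.8 CPM with the empty vector. The part of these markers in the results above was not tested.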

How the data were processed

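The members and gene lists were chosen with earlier results of these data known. Total RNA of ASZ001 cells was made into unstranded TruSeq libraries, per the labels' protocols, so overlapping genes on opposite strands cannot be told apart. The submitters' processing notes name TopHat, HOMER, DESeq2 and mm9, versions and what DESeq2 did being not given in the sources used here. The authors deposited expected counts, not normalized, with 1 entry per symbol, and every value is a multiple of 0.5. The deposited table also gives a transcript length for each gene, which served no test.

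Of 24909 entries, 26 date-like symbols were left out. The rest were rounded to integers for edgeR 4.0.16 (R 4.3.3). The filterByExpr function kept 12879 of them, at settings of 10 for min.count and 15 for min.total.count. TMM factors scaled the libraries. A single model of all 8, robust and with 4 residual degrees of freedom, gave the quasi-likelihood tests, two-sided and adjusted by Benjamini-Hochberg, at a common biological coefficient of variation of 0.0596. The standard error of a log2 fold change was derived from the F statistic. The procedure was tested on simulated counts.

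Depth limits low genes, and intervals and errors cover these libraries only. Chi-square per degree of freedom between both libraries of a group came to 9.17 with afatinib, 8.60 with DMSO, 25.1 with UO126 and 4.85 with the empty vector, so the libraries of each pair differed beyond sampling noise.

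Named genes were Fos and the 4 EGFR family receptors, the 10 largest rises and 10 largest falls of afatinib against the empty vector, and the largest genes of the kept, new, turned and returned kinds described with them. They also included up to 3 called members of each list, or its most abundant member where none qualified. Apart from the receptors and the most abundant members, the calls that placed a gene had to hold in the fits that left out each library, at 5 CPM or more in the higher group with no overlap of libraries, without predicted symbols. For kept and turned genes this covered the afatinib call only, and their DMSO call had to hold only in the fit to all 8 libraries. For a gene back at the empty-vector level the call was that of DMSO. Promoters were matched by symbol in the RefSeq table of GRCm38.p6, and 114 of 146 named genes had one. The alternatives were DESeq2 1.42.0 size factors and its Wald test, library size alone, other low-count filters, only the 4 libraries compared, a replicate block, no robust estimation, stricter thresholds, Rn45s left out and each library left out in turn. Some genes that met the rule are not reported here.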

Additional observations from a re-analysis of the deposited data

How the results depend on the processing

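Under the 2-fold minimum the counts were 613 higher and 454 lower for afatinib against the empty vector, 494 and 512 for DMSO against the empty vector, and 346 and 279 for afatinib against DMSO. Over the fits without 1 library, afatinib against the empty vector ranged between 2249 and 3460 genes higher and between 1953 and 3232 lower. DMSO against the empty vector ranged between 1939 and 3466 higher and between 1661 and 3085 lower, and afatinib against DMSO between 1905 and 3344 higher and between 1692 and 3205 lower. Under the other alternatives the counts stayed within 1.5 times the reported ones. The correlations of same-numbered deviations lay between -0.21 and 0.12, which does not settle whether the replicate numbers pair the libraries. With the replicate block, afatinib against the empty vector had 2619 higher and 2766 lower, DMSO against the empty vector 2554 and 2478, and afatinib against DMSO 2527 and 2537. A block with the afatinib numbers crossed, added after seeing the data because the afatinib and empty-vector correlation was -0.115, gave 2992 higher and 3236 lower. The list counts of the comparisons with DMSO were also rerun without each library after seeing the data. No named gene reversed direction in a called comparison. The cause of the changes was not tested. With 2 libraries per group and few counts at low levels, fold changes of genes near 0 in one group are imprecise, and transcript isoforms, separate cultures and a vehicle-matched empty vector were not analysed here.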
